A study of Mus musculus with 12 samples.

Results

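Genomic imprinting is the expression of a gene from only the copy inherited from the mother or only the copy inherited from the father, and 51 genes known for it in the mouse are described here in the adult liver. The 51 were a list of gene symbols, and all were present among the 24527 symbols of the deposited table. The list gives 26 genes as expressed from the paternal copy and 25 from the maternal copy. These are labels of the list, and the expressed copy was not measured in these livers. Liver messenger RNA had been sequenced from 12 mice aged 39 weeks, all offspring of CF1 females and B6SJL males and none with a labelled gene change or drug treatment. IVF offspring came from in vitro fertilization by a protocol the labels credit to the Jackson Laboratory, and natural offspring came from mating. The groups were IVF females, natural females, IVF males and natural males, with n = 3 libraries each. Replicate numbers name libraries in accession order and pair none of them.

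Imprinted genes lie in clusters whose parental expression is set by a control region methylated in only one of the parental germ lines, and this mark has to survive the demethylation of the early embryo, the period in which IVF embryos are cultured. Many imprinted genes act on fetal growth: paternally expressed Igf2 drives it, while maternally expressed Igf2r, Cdkn1c and Grb10 restrain it. In liver several of them, H19 and Igf2 above all, are highly expressed before birth and are silenced afterwards. The counts do not separate the parental copies, so a change in imprinting that leaves the total level equal would not be seen. Isoforms of differing parental origin, as in Gnas, Grb10, Inpp5f and Blcap, were also counted together.

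The 250 bases before the transcription start are shown for members on which the results below turn, from RefSeq's promoter table for GRCm38.p6, each written from 5′ to 3′ on the gene's own strand. Capitals mark CpG dinucleotides, the sites that DNA methylation uses. Meg3, Rian and Igf2r were called between the sexes, whereas Dlk1 and Peg3 were high in a single library.
Meg3 at chr12:109540746-109540995, plus strand: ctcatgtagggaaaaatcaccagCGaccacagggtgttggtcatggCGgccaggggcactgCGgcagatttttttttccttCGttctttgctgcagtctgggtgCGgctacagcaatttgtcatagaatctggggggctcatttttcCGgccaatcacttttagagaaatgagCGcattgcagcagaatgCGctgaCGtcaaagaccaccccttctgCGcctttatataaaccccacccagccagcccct
Rian at chr12:109603695-109603944, plus strand: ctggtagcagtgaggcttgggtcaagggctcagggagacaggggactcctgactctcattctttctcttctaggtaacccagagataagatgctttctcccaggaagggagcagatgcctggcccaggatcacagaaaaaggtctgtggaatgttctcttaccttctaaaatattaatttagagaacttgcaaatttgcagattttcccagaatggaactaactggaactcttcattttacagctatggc
Dlk1 at chr12:109452573-109452822, plus strand: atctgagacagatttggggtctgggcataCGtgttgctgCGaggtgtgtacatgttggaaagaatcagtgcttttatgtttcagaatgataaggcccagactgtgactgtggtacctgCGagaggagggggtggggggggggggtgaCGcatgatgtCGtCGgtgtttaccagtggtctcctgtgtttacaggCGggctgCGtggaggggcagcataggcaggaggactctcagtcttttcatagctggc
Igf2r at chr17:12769707-12769956, minus strand: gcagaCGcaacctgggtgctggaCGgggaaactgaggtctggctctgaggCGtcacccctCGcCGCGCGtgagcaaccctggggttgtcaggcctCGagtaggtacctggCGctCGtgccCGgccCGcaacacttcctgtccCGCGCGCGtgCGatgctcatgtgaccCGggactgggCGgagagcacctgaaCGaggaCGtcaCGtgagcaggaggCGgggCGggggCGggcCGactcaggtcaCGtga
Peg3 at chr7:6730420-6730669, minus strand: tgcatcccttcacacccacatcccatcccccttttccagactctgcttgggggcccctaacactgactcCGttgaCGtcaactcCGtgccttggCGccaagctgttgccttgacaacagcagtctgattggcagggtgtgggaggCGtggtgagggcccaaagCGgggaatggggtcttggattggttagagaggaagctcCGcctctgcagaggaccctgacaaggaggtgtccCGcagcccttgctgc
Of the windows shown, that of Igf2r held 27 CpG, that of Meg3 10, those of Dlk1 and Peg3 8 each and that of Rian 0. Another Meg3 entry, at chr12:109545148-109545397, held 0 CpG and is not shown. In all, 39 members matched 57 promoter entries, with a median of 10 CpG in 250 bases against 6 over all 32851 promoters.

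The windows were searched on both strands for 3 motifs. The hexamer TGCCGC, bound when methylated by ZFP57, the zinc finger protein that keeps imprints, was found in 14.0% of the members' windows and in 8.68% of all windows, and Meg3 was among the members that held it. The palindrome TGACGTCA, the cAMP response element, was found for 2 members, Meg3 and Peg3, or 3.51% of the members' windows against 1.55% of all. The palindrome TTCNNNGAA, bound by STAT proteins, was found in 7.02% of the members' windows and 7.02% of all, with Rian among 4 members. The TGCCGC and TGACGTCA matches of Meg3 lie in the window shown and do not overlap each other, and each holds 1 CpG. A match is a description of letters and not a measured site.

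Several members, both noncoding and protein-coding, are also hosts of microRNAs, whose mature forms were not measured in these libraries. The sequences below belong to H19 and Igf2, which were high in a single library, and to Meg3 and Rian, which were called between the sexes, from RefSeq's miRNA table for GRCm38.p6, with the seed (bases 2 to 8) in capitals.
H19, mmu-miR-675-5p: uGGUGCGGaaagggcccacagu
H19, mmu-miR-675-3p: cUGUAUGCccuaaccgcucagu
Igf2, mmu-miR-483-5p: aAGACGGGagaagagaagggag
Igf2, mmu-miR-483-3p: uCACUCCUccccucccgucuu
Meg3, mmu-miR-770-5p: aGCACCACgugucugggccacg
Meg3, mmu-miR-770-3p: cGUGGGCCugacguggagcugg
Rian, mmu-miR-370-5p: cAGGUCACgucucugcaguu
Rian, mmu-miR-370-3p: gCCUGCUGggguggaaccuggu
These 8 mature sequences have 8 different seeds. On the host's own strand the annotation places 3 hairpins within Rian and 14 within Mirg, the neighbouring noncoding RNA.

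Library totals ranged from 6826534 to 27832271 counts, and IVF female replicate 1 (6826534) and natural female replicate 2 (8056230) were the shallowest. Values are CPM, each gene's counts relative to its library total as scaled by edgeR's TMM factors. The limit that a count of 0 sets, taken as 3 counts, was 0.445 CPM in the shallowest library and 0.119 CPM in the deepest, and it covers counting error only. Y-linked transcripts gave 0 to 2 counts in each of the 6 female libraries and 2396 to 4257 in each of the 6 male libraries. Albumin, the main hepatocyte product (Alb), ranged from 44670 to 81520 CPM, and all 7 hepatocyte markers on the list used were detected. Pancreas and adipose markers summed to at most 0.59 and 1.10 CPM in any library. The labels do not say which animals share a litter, and p-values measure only the spread between these libraries. In whole tissue, fewer cells of a type and less RNA per cell cannot be told apart.

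A small set of imprinted genes made up most of the members' counts in the adult liver. Together the 51 genes took 0.174% to 0.288% of a library's counts. Slc38a4, an amino acid transporter of hepatocytes, alone took 39.1% to 56.5% of the members' counts, and with Gnas, Cd81 and Dcn it took 69.7% to 81.1%. The filter on low counts was passed by 35 members among 13204 genes, 16 of the 26 paternally and 19 of the 25 maternally expressed ones. Airn, with 100 counts in all, was the lowest that passed and Asb4, with 83, the highest that did not. Kcnk9, a potassium channel of the brain, had 0 counts in every library, and 36 members had counts in all 12.

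**Figure D1:**
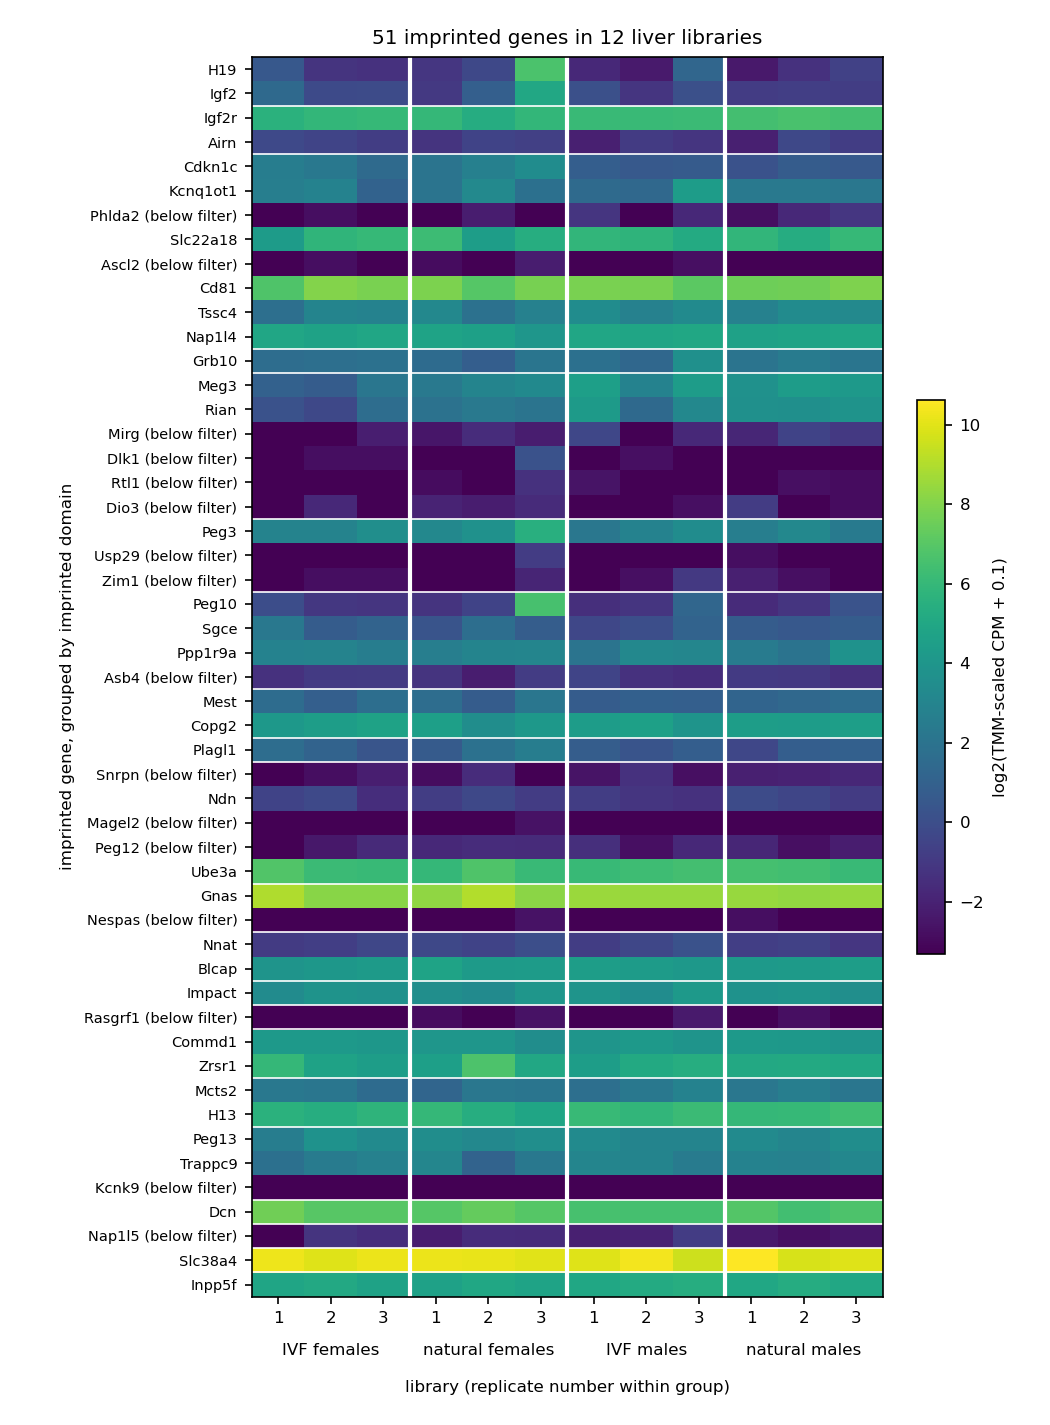
Level of each of the 51 imprinted genes (rows, grouped by imprinted domain) in each of the 12 libraries (columns, 3 per group), as log2 of TMM-scaled CPM plus a pseudocount of 0.1. Slc38a4, Gnas and Cd81 are bright in every column, whereas H19, Igf2 and Peg10 are bright only in natural female replicate 3, and 16 genes marked as below the filter are near the floor in most libraries.

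Compared per kilobase of exon, Slc38a4 had the highest median over the 12 libraries, 255.8 CPM per kb (176 to 371). The tetraspanin Cd81 followed at 76.2 (38.8 to 92.8), then the organic cation transporter Slc22a18 at 32.5 (11.8 to 44.2), the stimulatory G protein subunit Gnas at 31.4 (24.9 to 46.6) and the proteoglycan decorin, Dcn, at 20.6 (14.7 to 33.5). Of these 5, only Slc38a4 is listed as paternally expressed, and its range alone lay clear of every other member's. The ranges of Cd81, Slc22a18 and Gnas overlapped, as did those of Gnas and Dcn. A middle group of 13 members, whose neighbours in rank all overlapped, went from Nap1l4, a histone chaperone, at 9.15 down to Peg13, a noncoding RNA, at 2.14 CPM per kb. Igf2r, the receptor that removes IGF2 from the cell surface, stood in it at 7.29 (4.30 to 10.5).

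H19, Igf2 and Peg10 were near the bottom in most libraries. H19 had a median of 0.141 CPM per kb, Igf2 0.140 and Peg10, a retrotransposon-derived gene of the placenta, 0.054, but their highest libraries reached 41.3, 5.67 and 14.1. Dlk1, a transmembrane ligand of fetal hepatoblasts, Rtl1, Usp29, Ascl2, Magel2, Nespas and Rasgrf1 had a median of 0. The long noncoding RNAs that silence their clusters were low as well by this measure: Airn had a median of 0.131 and Kcnq1ot1 0.050 CPM per kb. The annotated exonic length was 3597 bases for Airn and 93092 for Kcnq1ot1. Without division by length their medians were 0.472 and 4.67 CPM, so that the low place of Kcnq1ot1 depends on its length.

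**Figure D2:**
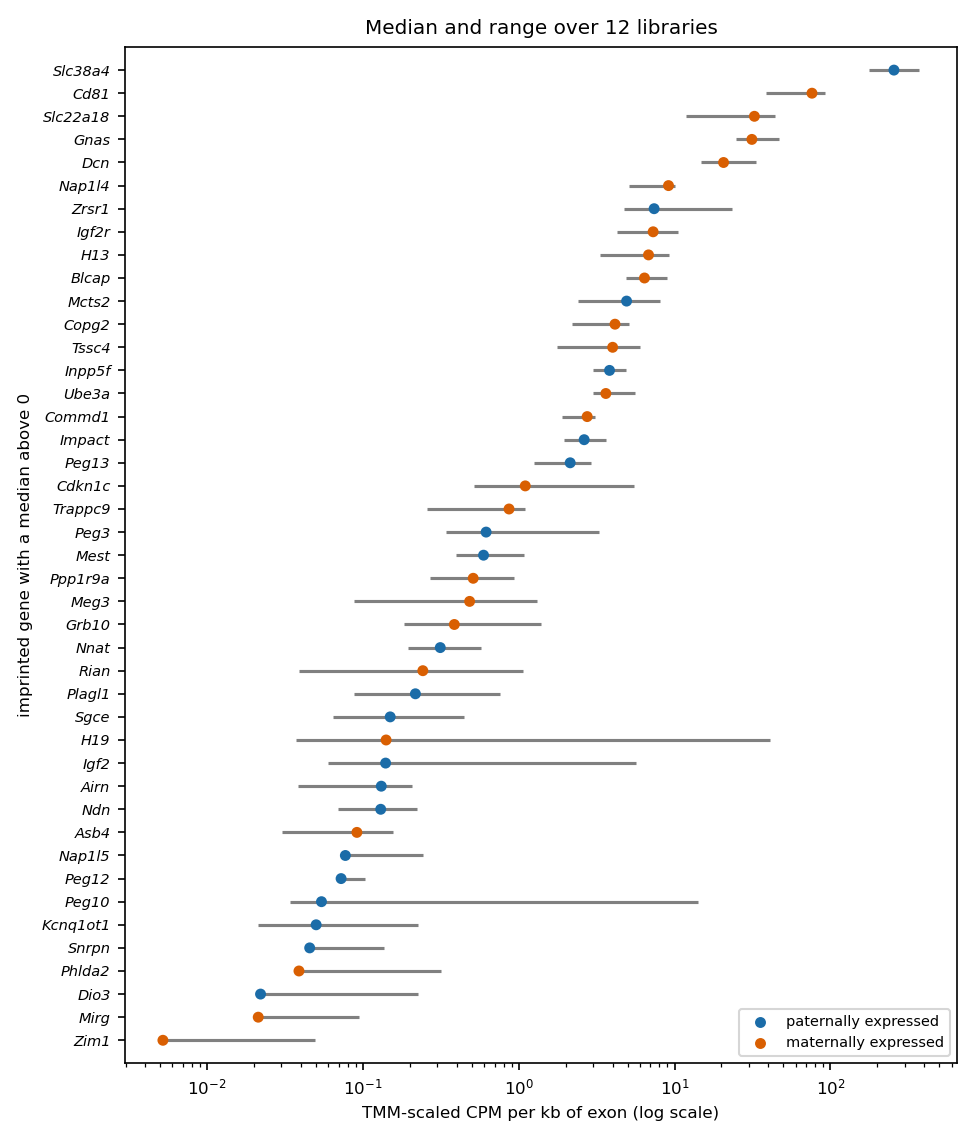
Median (point) and range (line) over the 12 libraries of TMM-scaled CPM per kb of exon, on a log axis, for the 43 members with a median above 0, coloured by the expressed parental copy. A line that starts at its point marks a lowest value of 0. Slc38a4 leads at 255.8 CPM per kb, and the long lines of H19, Igf2 and Peg10 reach to 41.3, 5.67 and 14.1 in 1 library.

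A single library, natural female replicate 3, stood apart in H19, Igf2, Peg10, Dlk1 and Peg3. H19, the noncoding RNA of the Igf2 cluster, measured 102 CPM there (1753 counts), against 0.361 and 0.719 CPM in the other natural females, 1.34, 0.333 and 0.299 in IVF females, 0.206, 0.098 and 2.35 in IVF males and 0.091, 0.300 and 0.553 in natural males. That is 43.2 times the next library. Igf2, the growth factor whose enhancers H19 shares, measured 32.4 CPM there (560 counts). The other natural females had 0.401 and 1.8 CPM of Igf2, IVF females 2.67, 0.790 and 0.812, IVF males 0.961, 0.344 and 0.951, and natural males 0.457, 0.499 and 0.474. Igf2 thus exceeded the next library 12.1 times.

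Peg10 followed the same pattern. It measured 93.7 CPM in natural female replicate 3 (1617 counts) and 0.321 and 0.599 CPM in the other natural females, 0.890, 0.374 and 0.342 in IVF females, 0.275, 0.344 and 2.3 in IVF males and 0.228, 0.350 and 1.11 in natural males, so that it was 40.7 times the next library. Sgce, its neighbour transcribed from the opposite strand, measured 1.62 CPM in that library, within the 0.687 to 4.75 CPM of the rest. The zinc finger gene Peg3, paternally expressed from another cluster, measured 43.8 CPM there against 8.98 and 13.3 CPM in the other natural females, 7.42, 7.48 and 11.8 in IVF females, 4.53, 7.08 and 11 in IVF males and 6.26, 9.19 and 5.14 in natural males. It exceeded the next library 3.29 times. Dlk1 had 18 counts in natural female replicate 3 and 0 or 1 in the others, Usp29 8 counts and Rtl1 5, again against 0 or 1.

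By a rule of at least 10 counts in a gene's highest library and at least 4 times the level of the next, 154 of 14029 genes (1.1%) peaked in natural female replicate 3. Among the members with enough counts 4 of 39 (10.3%) did, namely Dlk1, H19, Igf2 and Peg10. In the other 11 libraries 0 to 29 genes and 0 members peaked by that rule. Peg3 at 3.29 times was just outside it, and Dlk1 at 21.2 times was inside with the fewest counts. Other markers were also higher in that library: the bile duct keratins Krt19 (4.92 CPM against 0.120 to 1.04 elsewhere) and Krt7 (2.55 against 0 to 0.632), and the proliferation marker Mki67 (21.6 CPM), which was nearly as high in IVF female replicate 1 (18.3). The 5 cholangiocyte markers summed to 31.2 CPM in it, within the 21.2 to 57.6 of the rest. Of these 5 markers 2, Krt19 and Krt7, peaked there by that rule. Among 3 cycling cell markers with enough counts 1 did, Ccnb1 (12 counts against at most 3). The part of bile duct and cycling cells in the members' values was not tested. By the same rule 1 of 24 further imprinted genes with enough counts, Zdbf2, peaked there at 7.61 times the next library (24 counts against at most 4). Of 10 genes on a list of those silenced in liver after birth and their regulators 1 did, the fetal RNA-binding protein gene Igf2bp1, with 12 counts against 0 or 1 elsewhere. Afp, alpha-fetoprotein, of the same list, measured 6.43 CPM there, within the 1.92 to 9.5 of the others. Hmga2, also of that list, peaked by the same rule in IVF male replicate 3, at 4.03 times the next library (14 counts against at most 4). Ccnb1, Zdbf2, Igf2bp1, Afp and Hmga2 were chosen for mention after their values were seen.

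A different library led for the noncoding RNA Kcnq1ot1 and for Grb10, the adaptor that dampens insulin and IGF1 receptor signalling. IVF male replicate 3 measured 21.1 CPM of Kcnq1ot1, against 2.75 and 2.56 CPM in the other IVF males, 6.08, 7.07 and 1.97 in IVF females, 4.09, 9.47 and 3.42 in natural females and 4.93, 4.79 and 4.55 in natural males. Grb10 measured 12.7 CPM in it, 3.43 and 2.41 in the other IVF males, 3.12, 3.37 and 3.59 in IVF females, 2.89, 1.68 and 4.23 in natural females and 4.02, 5.39 and 4.19 in natural males. The library was 2.23 times the next for Kcnq1ot1 and 2.36 times for Grb10, and it held the second-highest level of H19 and Peg10. Members' log2 fold changes between IVF and natural animals that rest on natural female replicate 3 or IVF male replicate 3 are given with and without them below.

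**Figure D3:**
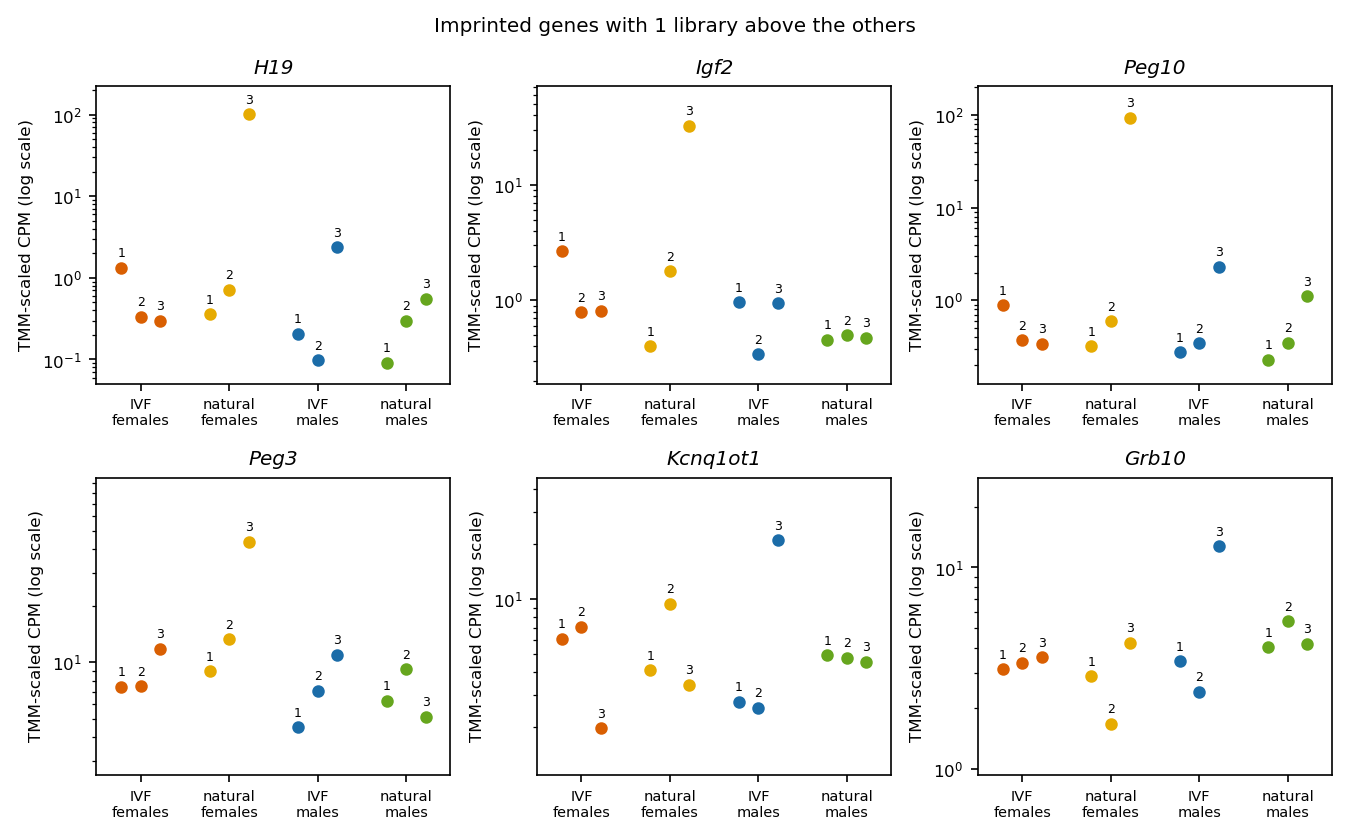
TMM-scaled CPM of 6 imprinted genes in each library on log axes, by group, with points labelled by replicate number. Natural female replicate 3 lies above all others for H19, Igf2, Peg10 and Peg3 (102, 32.4, 93.7 and 43.8 CPM), and IVF male replicate 3 lies above all others for Kcnq1ot1 and Grb10 (21.1 and 12.7 CPM).

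The first comparison was between IVF and natural females, the labels giving conception and sex as the variables of the study. By edgeR's quasi-likelihood test with Benjamini-Hochberg adjustment, 0 of the 35 members tested were called at an adjusted p under 0.05, as were 0% of all 13204 genes. DESeq2 and limma voom also called 0 members. At an unadjusted p under 0.05 there were 5 members (14.3%), all lower in IVF females, against 3.7% of all genes. These were Peg10, H19, Igf2, Meg3 and Peg3. The median log2 fold change of the members was -0.03, beside -0.01 over all genes.

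Of these 5, Peg10, H19, Igf2 and Peg3 rested on natural female replicate 3. Peg10 measured 0.536 ± 0.308 CPM (SD, n = 3) in IVF females and 31.5 ± 53.8 in natural females, with a log2 fold change of -6.10 ± 1.88 (SE) in edgeR's test (unadjusted p = 0.0071, adjusted p = 1). It was 0.17 once natural female replicate 3 was left out. H19 went from -6.07 ± 1.93 (unadjusted p = 0.0087, adjusted p = 1, edgeR) to 0.14, and Igf2 from -3.21 ± 1.20 (unadjusted p = 0.021, adjusted p = 1, edgeR) to 0.40. Peg3 differed by -1.30 ± 0.53 (unadjusted p = 0.0315, adjusted p = 1, edgeR) and by -0.28 without that library.

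Meg3 was lower with and without that library. This maternally expressed noncoding RNA of the Dlk1-Dio3 cluster measured 1.93, 1.58 and 4.28 CPM in IVF females and 4.97, 7.79 and 9.73 in natural females. All IVF females were below all natural females. The log2 fold change was -1.49 ± 0.49 (edgeR, unadjusted p = 0.0106, adjusted p = 1), and -1.21 without natural female replicate 3 (unadjusted p = 0.0469). With IVF male replicate 3, which adds to the estimate of the spread, left out as well, it was -1.24 (edgeR, unadjusted p = 0.0525). Rian, transcribed from the same strand of the same cluster, measured 1.04, 0.707 and 3.12 CPM in IVF females and 3.69, 4.79 and 4.06 in natural females, again without overlap. Commd1, a copper metabolism gene, was higher in every IVF female (16.8 to 18.3 CPM) than in every natural female (11.2 to 15.8). These 3 of 35 members without overlap (8.57%) stand beside 7.42% of all genes.

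None of the other well-known members was called. In edgeR's test Cdkn1c, the inhibitor of cyclin-dependent kinases, had a log2 fold change of -0.73 ± 0.38 in females and Plagl1, a zinc finger transcription factor, -0.84 ± 0.53. Without natural female replicate 3 both were at -0.23. Mest, a gene of mesodermal tissue, had -0.19 ± 0.35, or 0.17 without that library, Gnas -0.10 ± 0.27, Igf2r 0.08 ± 0.19 and Grb10 0.17 ± 0.54. Dlk1 and Snrpn, a splicing protein of neurons, were too low to test.

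In males 0 of 35 members were called by edgeR's test, as against 0.00757% of all genes, and 0 were called by DESeq2 or voom. At an unadjusted p under 0.05 there were 0 members and 2.69% of all genes. Igf2r had the smallest p: it measured 70.4, 69.9 and 73.1 CPM in IVF males and 88.4, 97.7 and 86.8 in natural males, which did not overlap. Its log2 fold change was -0.36 ± 0.19 (edgeR, unadjusted p = 0.0927, adjusted p = 1). Nnat, a proteolipid, was at 0.67 ± 0.39 and Ndn, of the Prader-Willi cluster, at -0.76 ± 0.46, both below 1.1 CPM in every library.

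Mest was also lower in every IVF male (1.58 to 1.87 CPM) than in every natural male (2.15 to 2.96), with a log2 fold change of -0.54 ± 0.35. Nap1l4 was higher in every IVF male (29.5 to 31.4 CPM, against 25.5 to 29.4). These 3 of 35 members without overlap (8.57%) compare with 8.91% of all genes. H19 (1.48 ± 1.96), Igf2 (0.63 ± 1.32), Grb10 (0.45 ± 0.52), Cdkn1c (0.20 ± 0.40), Peg3 (0.14 ± 0.53), Plagl1 (0.07 ± 0.54), Gnas (0.06 ± 0.27) and Meg3 (-0.003 ± 0.45) did not pass. Without IVF male replicate 3, Grb10 was at -0.64 and H19 at -1.12, so that their direction rests on that library. Of the 6 Kupffer cell markers, 5 were lower in IVF males at an unadjusted p under 0.05 in edgeR's test and 0 were called, and their part in the members' values was not tested.

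**Figure D4:**
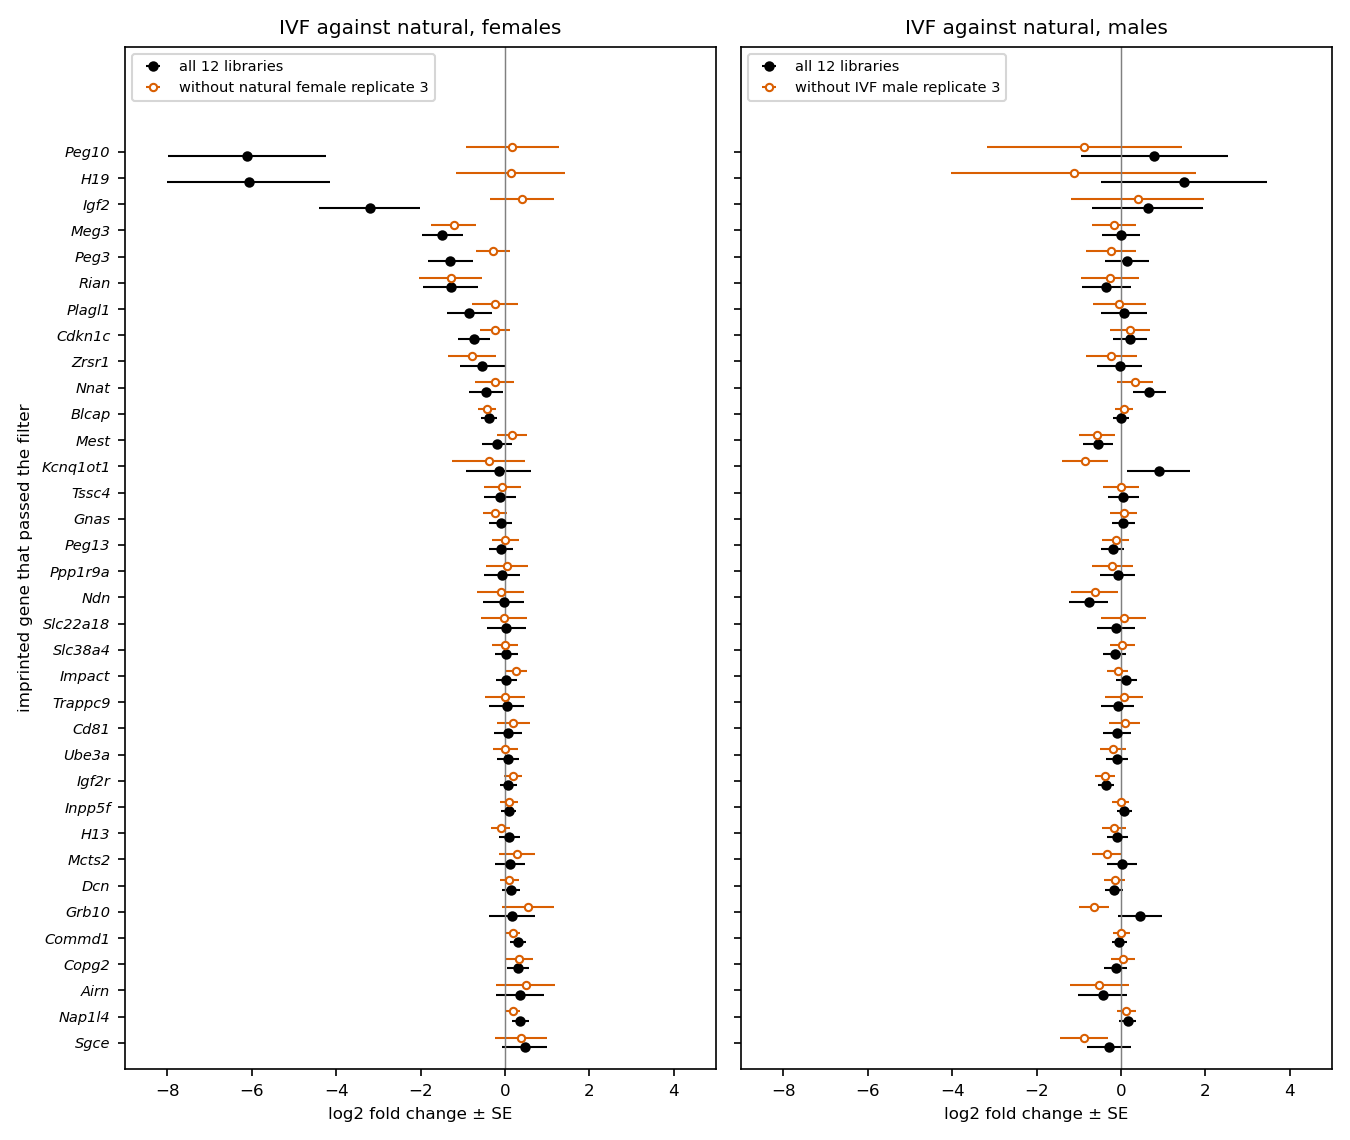
Log2 fold change with its SE from edgeR's test for the 35 members tested, IVF against natural, in females (left) and males (right). Filled points use all 12 libraries, and open points leave out natural female replicate 3 (left) or IVF male replicate 3 (right). Peg10, H19 and Igf2 lie at -6.10, -6.07 and -3.21 in females and move to 0.17, 0.14 and 0.40 without that library, whereas Meg3 moves only from -1.49 to -1.21.

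Averaged over the sexes, 0 members were called (0.00757% of all genes), and Meg3 alone had an unadjusted p under 0.05 (2.69% of all genes). Its average log2 fold change was -0.74 ± 0.33 (edgeR, unadjusted p = 0.0446, adjusted p = 0.9999). In 6 of 12 fits that each left out 1 library, 0 members had an unadjusted p under 0.05: those without IVF female replicate 1 or 2, IVF male replicate 2, natural male replicate 2 or 3, or natural female replicate 3. Peg10 was at -2.66 ± 1.27, or 0.48 without natural female replicate 3, and Nap1l4 at 0.26 ± 0.14. The test of whether conception acted differently by sex, with the female log2 fold change subtracted from the male one, called 0 members and 0% of all genes. H19 (7.56 ± 2.71), Peg10 (6.89 ± 2.53) and Meg3 (1.48 ± 0.66) had an unadjusted p under 0.05, against 3.87% of all genes. With natural female replicate 3 and IVF male replicate 3 both left out, H19 was at -1.22 and Peg10 at -1.01. With either of them left out alone, 0 members had an unadjusted p under 0.05 for this difference.

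More members were called between the sexes than between modes of conception. Averaged over IVF and natural animals, 5 of 35 members (14.3%) were called between males and females by edgeR's quasi-likelihood test, beside 7.2% of all genes. Cdkn1c and Dcn were lower in males, and Meg3, Rian and Igf2r were higher. All 5 are listed as maternally expressed, which these counts could not show for this liver. The members' median was 0.02, beside -0.01 over all genes.

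Cdkn1c, which holds cells out of the cell cycle, showed the clearest difference. It measured 5.94, 4.66 and 2.78 CPM in IVF females and 4.01, 6.59 and 11.1 in natural females, but 1.72, 1.38 and 1.5 in IVF males and 1.05, 1.55 and 1.38 in natural males. Every female was above every male. The female mean of 5.85 ± 2.92 CPM (SD, n = 6) was 4.09 times the male mean of 1.43 ± 0.22. The log2 fold change was -1.98 ± 0.28 (edgeR, adjusted p = 0.0014), and the call held without each library in turn. Its neighbours in the Kcnq1ot1 cluster, Slc22a18, Cd81, Tssc4 and Nap1l4, were not called.

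Meg3 and Rian differed the other way. Meg3 measured 23.8, 7.23 and 21.2 CPM in IVF males and 13.2, 20.8 and 18.2 in natural males, which set against the female values above gives means of 17.4 ± 6.14 and 5.05 ± 3.22 CPM. Only IVF male replicate 2, at 7.23, fell within the female range of 1.58 to 9.73. The log2 fold change was 1.96 ± 0.34 (edgeR, adjusted p = 0.0053). Rian measured 19.6, 2.66 and 9.01 CPM in IVF males and 12.6, 12.4 and 14.4 in natural males, for a mean of 11.8 ± 5.65 CPM against 2.90 ± 1.66 in females. Again IVF male replicate 2 alone lay within the female range, 0.707 to 4.79. Rian rose by 2.13 ± 0.45 (edgeR, adjusted p = 0.0161).

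Both calls held without each library in turn, but Rian's adjusted p in edgeR's test was 0.0678 when natural female replicate 3 and IVF male replicate 3 were left out together. Mirg, the next noncoding RNA on that strand, was below the filter with 10, 0 and 4 counts in IVF males, 4, 12 and 10 in natural males, 0, 0 and 3 in IVF females and 2 in each natural female. Dlk1, Rtl1 and Dio3, the paternally expressed protein genes of the cluster, were too low to test.

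The differences in Dcn and Igf2r were smaller and their calls less stable. Dcn, a collagen-binding proteoglycan made by stellate cells and fibroblasts, measured 196, 126 and 129 CPM in IVF females, 122, 160 and 124 in natural females, 93.7, 91.4 and 91.3 in IVF males and 119, 85.8 and 104 in natural males. Every female was above every male, by as little as 122.3 against 118.6 CPM. The fall in males was -0.55 ± 0.15 on the log2 scale (edgeR, adjusted p = 0.0455). The adjusted p was 0.0514 to 0.102 when any 1 library was left out. The 10 stellate cell and fibroblast markers summed to 156 to 222 CPM in females and 107 to 202 in males. Of them 1 (10%, beside 7.2% of all genes), Lrat, was called lower in males (-0.83 ± 0.23, edgeR, adjusted p = 0.0486). The part of these cells in the Dcn difference was not tested.

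Igf2r measured 47.8, 60.1 and 65.8 CPM in IVF females and 63.0, 40.0 and 61.2 in natural females, below all the males given above. The rise in males was 0.51 ± 0.14 (edgeR, adjusted p = 0.0455). Left out in turn, each library but natural female replicate 1 ended the call, with an adjusted p up to 0.103 in edgeR's test. Scaling by library size alone gave 0.29 (edgeR, adjusted p = 0.231). The 2 lowest levels belonged to the shallowest libraries, IVF female replicate 1 and natural female replicate 2, which were also the 2 highest for Dcn. Both were the lowest for 6 members (17.1%, beside 18.1% of all genes) and the highest for 5 (14.3%, beside 16.5%). With both left out Igf2r stayed called and Dcn did not.

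**Figure D5:**
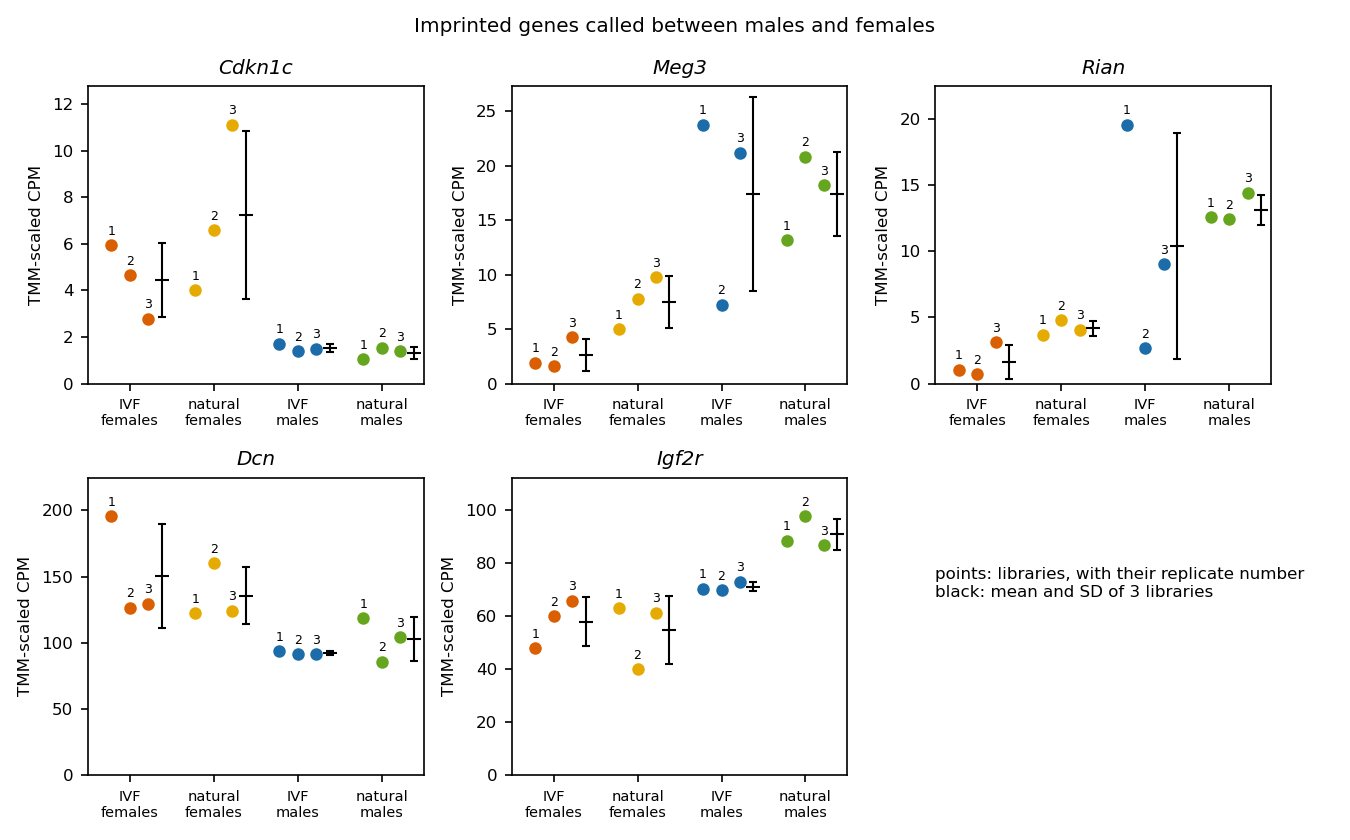
TMM-scaled CPM of the 5 members called between the sexes, by group, with points labelled by replicate number and the mean and SD of 3 libraries in black. All females lie above all males for Cdkn1c and Dcn and below them for Igf2r, and IVF male replicate 2 is the low male for Meg3 (7.23 CPM) and Rian (2.66 CPM).

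Within natural animals 1 member, Cdkn1c, was called (-2.44 ± 0.40, edgeR, adjusted p = 0.0087), or 2.86% of members beside 1.77% of all genes. Members whose sexes did not overlap numbered 7 of 35 (20%), equal to the 20% of all genes: H13, Igf2r, Meg3 and Rian were higher in males, and Cdkn1c, Dcn and Nnat lower. Within IVF animals Meg3 alone was called (2.70 ± 0.50, edgeR, adjusted p = 0.015), beside 2.19% of all genes. There the sexes did not overlap in 6 members (17.1%, beside 21.8% of all genes), with Airn, Cdkn1c and Dcn lower and H13, Igf2r and Meg3 higher in males. Over all 12 libraries Cdkn1c, Dcn and Igf2r did not overlap, 8.57% of members beside 5.75% of all genes. Meg3's call in IVF animals was lost without IVF female replicate 1 or 2 or without IVF male replicate 1 or 3 (adjusted p 0.0532 to 0.0737, edgeR). That Meg3 was called in IVF animals and not in natural ones does not show a difference between them, since the test of that difference gave 1.48 ± 0.66 (edgeR, adjusted p = 0.9999).

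Markers of other cells also differed by sex. By edgeR's test, averaged over the modes of conception, 2 of 6 Kupffer cell markers (33.3%) were called lower in males, Vsig4 (-1.44 ± 0.19) and Clec4f (-0.67 ± 0.14). So were 2 of 5 lymphocyte markers (40%), Cd3g and Cd79b. These shares stand beside 7.2% of all genes. The summed level of the Kupffer cell markers was 274 to 418 CPM in females, 134 to 210 among IVF males and 254 to 286 among natural males. That of the 5 lymphocyte markers was only 0.738 to 4.79 CPM over all libraries. None of 8 endothelial, 5 cholangiocyte, 7 hepatocyte or 3 cycling cell markers tested was called. The part of these cells in the members' sex differences was not tested.

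Grouped by the copy listed as expressed, neither class held a member called between IVF and natural animals. In females 6 of 16 paternally expressed members were higher in IVF (median log2 fold change -0.12) and 11 of 19 maternally expressed ones (median 0.04). In males the counts were 9 of 16 (median 0.05) and 6 of 19 (median -0.08). By sex, averaged over conception, 4 of 16 paternally expressed members were higher in males (median -0.30) and 14 of 19 maternally expressed ones (median 0.10). The classes were not tested against each other.

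In the related gene lists 0 genes were called between IVF and natural animals by edgeR's test. Of 23 further imprinted genes tested, 2 (8.7%, beside 7.2% of all genes) were called by sex on average. Sfmbt2, a polycomb group gene expressed from the paternal copy in placenta, was lower in males (-2.57 ± 0.48, edgeR, adjusted p = 0.0085). Calcr, the calcitonin receptor, had 0 counts in every female library and 0.069 to 1.62 CPM in males. It passed the filter on low counts only through the males, the side on which it was higher, so its call adds no support. Sfmbt2 was also highest in natural female replicate 3, at 4.58 CPM against 0.762 to 1.58 in the other females. Its difference by sex without that library is not given here. Cobl and Ddc had the smallest unadjusted p in the IVF comparisons, both in males (-2.23 ± 0.82 and 0.87 ± 0.33, adjusted p = 1 in edgeR's test).

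Among 18 genes of imprint maintenance and DNA methylation 2 (11.1%, beside 7.2% of all genes) were called by sex on average. Zfp445, a zinc finger protein that binds imprinting control regions together with ZFP57, was called higher in males (1.25 ± 0.22, edgeR, adjusted p = 0.0057). It ranged from 76.1 to 114 CPM in females and 154 to 333 in males. Tet2, which oxidizes methylcytosine, was lower in males (-1.02 ± 0.26, edgeR, adjusted p = 0.0363). Dnmt3a and Tet3 led by unadjusted p in the IVF comparisons, with Dnmt3a at -0.25 ± 0.11 on average over the sexes (adjusted p = 0.9999, edgeR).

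Of 17 genes of the IGF axis 2 (11.8%, beside 7.2% of all genes) were called lower in males on average. They were Igfbp3 (-0.81 ± 0.19) and Stat5a (-0.60 ± 0.16), with adjusted p of 0.0242 and 0.0474 in edgeR's test. Igf1r, the receptor through which IGF2 signals, had the smallest unadjusted p between IVF and natural males: 3.98, 2.66 and 3.70 CPM against 6.72, 6.24 and 6.64, a log2 fold change of -0.92 ± 0.28 (unadjusted p = 0.0059, adjusted p = 1, edgeR). Of 7 tested genes on the list of those silenced after birth and their regulators, 1 (14.3%, beside 7.2% of all genes) was called by sex on average, lower in males. Within natural animals 1 was called (14.3%, beside 1.77% of all genes) and within IVF animals 0 (beside 2.19%). The gene called within natural animals was Igf2bp2, an RNA-binding protein that carries Igf2 messages in the fetus. It was lower in males (-2.09 ± 0.41, edgeR, adjusted p = 0.0244).

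The 16 members below the filter add little. Asb4 (83 counts in all), Mirg (49), Nap1l5 (42) and Peg12 (35) were spread over 9 to 12 libraries. Snrpn and Dio3 had 26 counts each, Phlda2, which limits placental growth, 25, and Dlk1 21, of which 18 came from natural female replicate 3. Zim1 had 18, with 8 in IVF male replicate 3. Usp29 and Rtl1 had 9 counts each, Ascl2 and Rasgrf1 5, Nespas 2 and Magel2 1.

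Some members share bases with other genes, and whether the counting used strand is not given in the sources used here. Igf2 shares 3596 exonic bases with an annotated readthrough transcript on its own strand. Genes on opposite strands overlap at Mest and Copg2 (912 bases), Gnas and Nespas (988), Commd1 and Zrsr1 (412) and Ube3a and Snhg14 (1803). Cdkn1c overlaps an antisense gene over 625 bases and Meg3 one over 1228, and Mcts2, Peg13 and Nnat lie within H13, Trappc9 and Blcap. Reads from exonic bases shared by opposite strands cannot be told apart without strand, and those shared with the Igf2 readthrough not even with it. Mcts2, Peg13 and Nnat share 0 exonic bases with the genes around them.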

How the data were processed

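Poly-A RNA from snap-frozen liver of 12 mice aged 39 weeks was sequenced on a NextSeq 500, per the labels. The authors deposited raw read counts per gene symbol for each library, made with Trimmomatic 0.32, STAR 2.3.0e and featureCounts 1.5.0 on mm10, per the submitters' processing notes; annotation, strand and treatment of multi-mapping reads are not given in the sources used here. From these counts edgeR 4.0.16 in R 4.3.3 (TMM, filterByExpr by group, 1 model over 4 groups) tested 13204 genes in 7 contrasts by the quasi-likelihood test, with Benjamini-Hochberg adjustment over all genes and a threshold of 0.05; SE is the log2 fold change over the root of F. The code was tested on simulated data. Library totals ranged from 6826534 to 27832271 counts, and each SE also holds the spread between libraries.

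The members and lists were chosen with earlier results of these data known. Statistics are given for members called in any contrast, the 3 of smallest p in each IVF contrast, and 12 best-known members; other genes are named where called, among the 2 of smallest p of their list, or as markers. Alternatives were other scalings, other filters, DESeq2 1.42.0, limma 3.58.1 voom, and libraries left out. Exonic lengths and overlaps came from GENCODE M21. Replicate numbers follow accession order and pair nothing.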

Additional observations from a re-analysis of the deposited data

How the results depend on the processing

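Between IVF and natural animals no alternative called an imprinted gene, and over single members 544 of 578 recomputed values kept direction and side of the threshold while 34 reversed. In the sex comparisons 104 of 140 did, 36 lost the call and 0 reversed. DESeq2 called 4 genes of all in females, 5 in males, 4 on average and 9 for the difference between sexes, and by sex 678 in natural animals, 721 in IVF animals and 1693 on average, with 4 imprinted genes in each mode of conception. Those in natural animals were Cdkn1c, Igf2, Igf2r and Peg3, and Igf2 and Peg3 were high in natural female replicate 3. Voom called 0 in males and 0 on average. Library size alone, which moved the median of all genes by -0.31 for natural males against females, -0.21 by sex on average, -0.11 by sex in IVF animals, 0.13 for IVF in males and 0.20 for the difference between sexes, gave 510 and 1625 genes by sex in natural animals and on average, and put Meg3 in males at 0.14. With no filter 3 imprinted genes were called by sex on average. Without both shallow libraries 0 were called by sex in IVF animals, and Grb10 in females was at -0.013. Leaving out natural female replicate 3 and IVF male replicate 3 together, chosen after seeing the data, left 0 genes for IVF on average, and 136 and 463 by sex in IVF animals and on average, of which 0 and 2 were imprinted; the log2 fold changes became 0.15 for Peg10, 0.13 for H19, 0.39 for Igf2 and 0.15 for Mest in females, -1.10 for H19, -0.64 for Grb10, -0.23 for Peg3 and -0.038 for Plagl1 in males, and -1.22 for H19 and -1.01 for Peg10 for the difference between sexes. The causes were not tested. With each library left out in turn, calls over all genes ranged from 0 to 1 for IVF in males and on average, 111 to 263 by sex in natural animals, 137 to 348 in IVF animals and 519 to 810 on average. Imprinted genes called by sex ranged from 1 to 2, 0 to 2 and 3 to 6. Log2 fold changes in females ranged from -6.68 to 0.17 for Peg10, -6.74 to 0.14 for H19, -3.85 to 0.40 for Igf2, -0.10 to 0.22 for Igf2r, -0.068 to 0.54 for Grb10, -0.47 to 0.17 for Mest and -0.42 to 0.19 for Gnas. In males they ranged from -1.12 to 2.2 for H19, -0.64 to 0.84 for Grb10, -0.30 to 0.37 for Meg3, -0.23 to 0.40 for Peg3 and -0.26 to 0.32 for Plagl1, and on average from -3.48 to 0.48 for Peg10. No paired analysis was possible because the replicate numbers come from accession order. The titles of IVF female replicate 1 and IVF male replicate 2 share the first part of a number whose meaning is not given in the sources used here, and no other libraries share one.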
